A study of Mus musculus with 6 samples.

Results

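MHC class II antigen presentation was followed through 8 mouse genes in denervated gastrocnemius muscle: H2-Aa, H2-Ab1, H2-Eb1, H2-Ea, H2-DMa, Cd74, Ciita and Ctss. They were taken by name, and every probe set whose annotation gave one of them as its only gene was kept. All 8 genes were measured, out of 17097 genes named alone on the array, through 17 probe sets out of 45037. The MA group consisted of male ICR mice, an outbred stock, fed a diet with 0.27% maslinic acid, a triterpene of olives. The control group consisted of male ICR mice fed the AIN-93G diet without it. The mice of both groups entered the study at 7 weeks of age and were acclimated for 1 week. They then received their diets for 1 week before a piece of the sciatic nerve was excised from both legs, stayed on the same diet, and gave gastrocnemius muscle on day 14 after the surgery. RNA was measured on 3 arrays per group, with no array from innervated muscle, and the sources used here do not say if each array had a mouse of its own.

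MHC class II molecules carry peptides from endocytosed proteins to the surface of macrophages, dendritic cells and B cells, where CD4+ T cells read them. In the mouse, H2-Aa and H2-Ab1 encode the alpha and beta chains of the I-A molecule, and H2-Ea and H2-Eb1 those of the I-E molecule. Cd74, the invariant chain, holds the new molecules and guides them to endosomes, cathepsin S (Ctss) trims it there, and the H2-DM heterodimer, of which H2-DMa is the alpha chain, exchanges its last fragment for a peptide. Ciita is the coactivator that switches on most of these genes, and interferon-gamma induces it. It binds no DNA itself but is held by the factors on the X and Y boxes of class II promoters. In several laboratory mouse haplotypes, that of C57BL/6 included, a deletion at the start of H2-Ea silences the gene. Which haplotypes the ICR mice carried, at H2-Ea or at the other H2 genes, was not analysed here. The part of haplotypes in the differences of the H2 probe sets was not tested.

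The promoters of class II genes are shown because most members moved together. RefSeq promoters of GRCm38.p6, 250 bases before to 50 after each start, were at hand for 4 of the 8 members (H2-Aa, H2-Eb1, H2-DMa and Ctss, with 5 promoters) and for 5 of 5 other class II chains. They were searched on both strands for TGATTGG (the Y box, bound by NF-Y), for AACNNATGA (a core of the X box, whose letters were chosen after these promoters had been read) and for GAAANNGAA (the core of an interferon-stimulated response element, bound by interferon regulatory factors). None of the 3 motifs overlaps another in the windows shown. Each window is 110 bases, 5′ to 3′ on the strand of the gene, with matches in capitals.
H2-Aa, chr17:34287842-34287951, minus strand: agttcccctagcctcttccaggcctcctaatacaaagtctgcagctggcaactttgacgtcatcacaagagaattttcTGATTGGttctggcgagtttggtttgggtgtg
H2-Eb1, chr17:34305728-34305837, plus strand: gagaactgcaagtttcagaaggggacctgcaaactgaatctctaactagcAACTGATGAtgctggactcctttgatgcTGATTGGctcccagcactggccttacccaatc
H2-DMb1, chr17:34153050-34153159, plus strand: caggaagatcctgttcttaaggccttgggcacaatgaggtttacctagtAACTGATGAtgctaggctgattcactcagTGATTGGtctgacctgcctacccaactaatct
H2-DMb2, chr17:34145079-34145188, plus strand: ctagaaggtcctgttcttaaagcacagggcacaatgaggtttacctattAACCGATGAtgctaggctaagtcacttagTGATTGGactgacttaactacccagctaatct
H2-Ob, chr17:34238768-34238877, plus strand: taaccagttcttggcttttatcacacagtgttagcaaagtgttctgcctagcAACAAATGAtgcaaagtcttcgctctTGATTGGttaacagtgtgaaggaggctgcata
Ctss, chr3:95526689-95526798, plus strand: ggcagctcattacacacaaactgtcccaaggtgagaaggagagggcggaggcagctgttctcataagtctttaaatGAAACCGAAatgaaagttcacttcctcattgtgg
With positions counted from the start of the transcript, H2-Aa had the Y box at -50 and no match to the X box letters, and H2-Eb1 had the X box core at -89 and the Y box at -61. The beta chains of H2-DM, H2-DMb1 and H2-DMb2, and H2-Ob, the beta chain of the DM inhibitor H2-DO, held both in the same order. H2-Oa, the alpha chain of H2-DO, had the Y box at -45 and H2-Eb2, a second I-E beta gene, had it at -102, and neither matched the X box letters. In Ctss the capitals mark the interferon-stimulated core, at -21. Neither promoter of H2-DMa held any of the 3 motifs. Over all 32851 RefSeq promoters, the Y box stood in 7.82%, the X box core in 2.85% and the interferon-stimulated core in 8.56%. A match is a run of letters and was not tested as a binding site.

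Values are log2 expression after robust multi-array averaging (RMA), so that a difference of 1 is a doubling, and levels of different probe sets cannot be set against each other. The array medians lay between 4.27 and 4.28 on the log2 scale. Pearson correlations over probe sets were 0.99922 to 0.99965 within groups and 0.99338 to 0.99369 between groups, and the median SD within a group was 0.0365. A probe set was called when its adjusted p (limma, Benjamini-Hochberg over 45037 probe sets) was under 0.05, a rule that called 21.4% of all probe sets lower and 21.6% higher in the MA group. The median difference of all probe sets was 0.0029. The highest nonspecific-binding control, leaving out the control whose probes are all G and C, lay between 3.86 and 3.95 on the 6 arrays and serves here as background. The 18 hybridization controls, bacterial and phage RNAs added to every array, were all higher in the MA group, by 0.04 to 0.35 with a median of 0.17, and their part in the differences was not tested. The p-values measure the spread between these arrays, and an exact permutation test of 3 against 3 cannot go below 0.1.

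Most of the class II genes were lower in the MA group than in the control group. In whole muscle, fewer cells of a type and less RNA per cell cannot be told apart. Of the 17 probe sets, 11 were lower, 2 were higher and 4 did not pass. With a fold over 1.5 asked for in addition, 8 were lower and 2 higher, where the same rule took 1.21% of all probe sets as lower and 0.968% as higher. The 3 MA values and the 3 control values did not overlap for 13 of the 17, against 53.9% of all probe sets. Counted once by its brightest probe set, 6 of the 8 genes were lower, H2-Ea was higher and Ciita did not pass, where 23.0% of all genes were lower and 24.7% higher. The median difference of the 8 genes was -1.02, against 0.01 over all genes. Both probe sets that were higher belonged to H2-Ea.

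**Figure D1:**
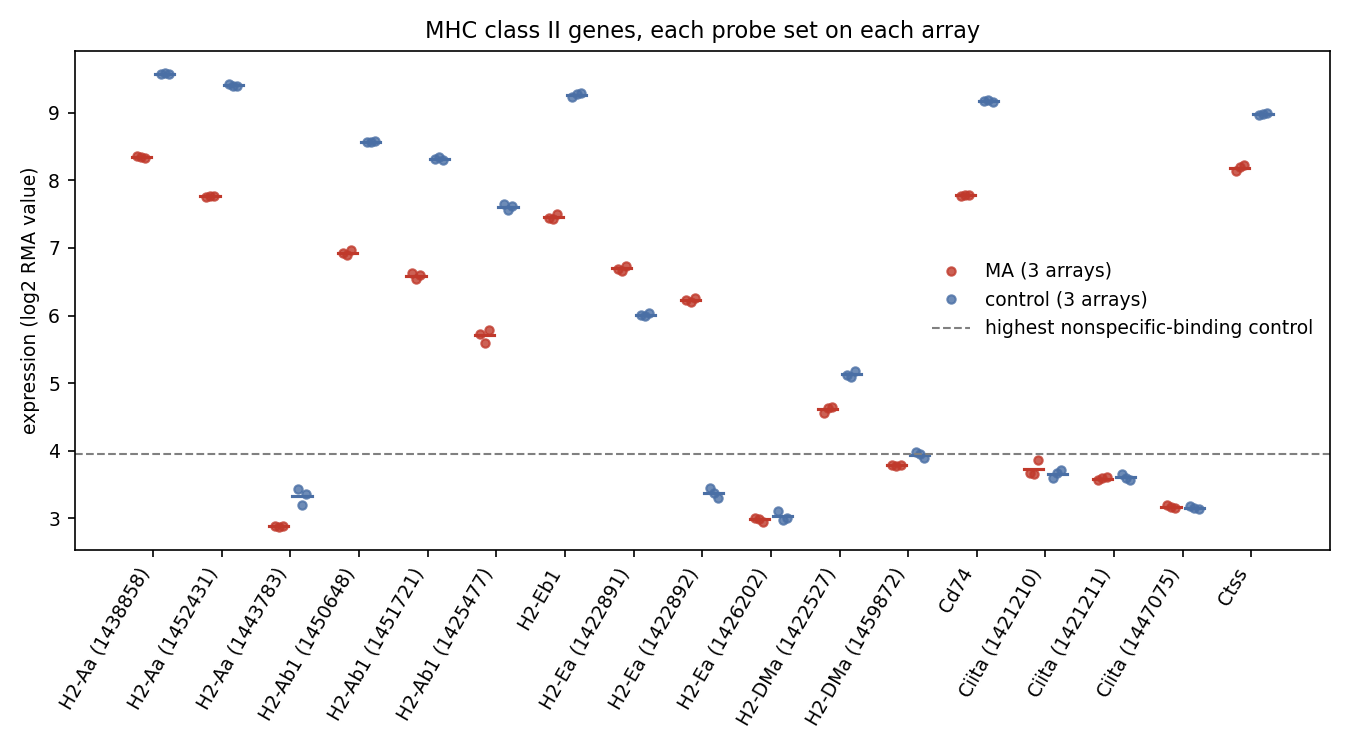
Log2 RMA value (vertical axis) of each of the 17 probe sets of the 8 genes on each array, with the 3 MA arrays in red left of the 3 control arrays in blue, short bars for group means and a dashed line at the highest background of any array, 3.95. The MA points lie under the control points for H2-Aa, H2-Ab1, H2-Eb1, H2-DMa, Cd74 and Ctss and above them for 2 of the 3 probe sets of H2-Ea, and all points of Ciita lie under the line.

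Of the 4 chains of the classical molecules, H2-Eb1, H2-Ab1 and H2-Aa fell. H2-Eb1, the beta chain of I-E, has 1 probe set (1417025), which stood at 7.44, 7.42 and 7.51 on the MA arrays, against 9.24, 9.29 and 9.29 on the control arrays. It fell by 1.81 on the log2 scale (SE 0.03, 95% interval -1.88 to -1.74), a 3.51-fold difference (limma adjusted p = 3.135e-09). Each MA array lay more than a whole log2 unit under each control array. The 3 probe sets of H2-Ab1, the beta chain of I-A, gave the same direction. The first (1450648) read 6.92, 6.90 and 6.97 on the MA arrays, against 8.57, 8.57 and 8.58 on the control arrays. The second (1451721) read 6.62, 6.54 and 6.60 on the MA arrays, against 8.32, 8.34 and 8.30 on the control arrays. The third (1425477), whose suffix x_at says that some of its probes may match other transcripts, read 5.73, 5.60 and 5.79 on the MA arrays, against 7.66, 7.56 and 7.62 on the control arrays. The log2 differences were -1.64 (SE 0.02), -1.73 (SE 0.03) and -1.91 (SE 0.05), or 3.12-fold, 3.33-fold and 3.75-fold lower in the MA group, with limma adjusted p of 2.166e-09, 2.661e-09 and 3.322e-08. Ordered from the greatest fall over the 45037 probe sets, H2-Ab1 held ranks 30, 35 and 44, and H2-Eb1 rank 32.

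H2-Aa, the alpha chain of I-A, fell by different amounts on its brighter probe sets. Probe set 1452431, of the s_at kind whose probes are shared by transcripts of more than 1 gene, read 7.75, 7.77 and 7.77 on the MA arrays, against 9.43, 9.40 and 9.40 on the control arrays. Its difference was -1.64 (SE 0.02), 3.13-fold (limma adjusted p = 1.268e-09). Probe set 1438858, of the x_at kind, read 8.36, 8.34 and 8.34 on the MA arrays, against 9.58, 9.58 and 9.58 on the control arrays. Its difference was -1.23 (SE 0.02, 95% interval -1.28 to -1.19), 2.35-fold (limma adjusted p = 3.479e-09). No MA array reached a control array on either. The third probe set of the gene (1443783) stood under background on all 6 arrays, at 2.88, 2.87 and 2.89 on the MA arrays, against 3.43, 3.20 and 3.36 on the control arrays. It passed with a difference of -0.45 (limma adjusted p = 0.0002102), the only one of the 5 probe sets under background on all arrays to do so.

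H2-Ea, the alpha chain of I-E, did not follow its partner H2-Eb1, and its 3 probe sets disagreed. Probe set 1422892, of the s_at kind, read 6.23, 6.21 and 6.26 on the MA arrays, against 3.45, 3.38 and 3.30 on the control arrays. The 3 control values were under background and the 3 MA values were more than 2 log2 units above it. The measured difference was 2.86 (SE 0.04, 95% interval 2.77 to 2.94, limma adjusted p = 1.371e-09). With the control level replaced by background, 3.88, the MA group was at least 5.12-fold higher, against 7.25-fold as measured. Probe set 1422891, of the at kind, meant to be unique to the gene, read 6.69, 6.66 and 6.74 on the MA arrays, against 6.01, 5.99 and 6.04 on the control arrays. It rose by 0.68 (SE 0.03, 95% interval 0.62 to 0.75), 1.61-fold (limma adjusted p = 4.074e-07), with all 6 values above background. Probe set 1426202 read 3.01, 2.99 and 2.95 on the MA arrays, against 3.10, 2.97 and 3.00 on the control arrays. These groups overlapped under background, and the difference of -0.04 had a 95% interval of -0.13 to 0.04 (limma adjusted p = 0.3731). The gene therefore had a level on the control arrays by 1 probe set and none above background by the other two, and the positions of the probes on the transcript were not analysed here.

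The gap between the I-E chains was compared array by array. The difference of H2-Ea exceeded that of H2-Eb1 by 2.49 log2 units for probe set 1422891 and, with the control level of H2-Ea at background, by at least 4.17 for probe set 1422892. In 5 further pairs, the fall of H2-Eb1 was greater than that of H2-Aa (1438858) by 0.58, that of H2-Ab1 (1450648) by 0.41 and that of Cd74 by 0.17. These 3 orders hold for that probe set of H2-Aa, since its other bright one (1452431) differed by -1.64, against -1.81 for H2-Eb1, -1.64 for H2-Ab1 and -1.40 for Cd74. The fall of H2-DMa (1422527) was smaller than that of H2-Aa (1438858) by 0.72, and that of Ctss was smaller than that of Cd74 by 0.60. In all 7 pairs the within-array gaps of the MA and control groups did not overlap. Taken singly, 53.9% of all probe sets did not overlap either, and gaps of other pairs were not computed. The pairs were chosen with earlier results known, so that their gaps serve as description. Each exact two-sided permutation p was 0.1, the smallest this design allows, and 0.1 after adjustment over the 7.

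**Figure D2:**
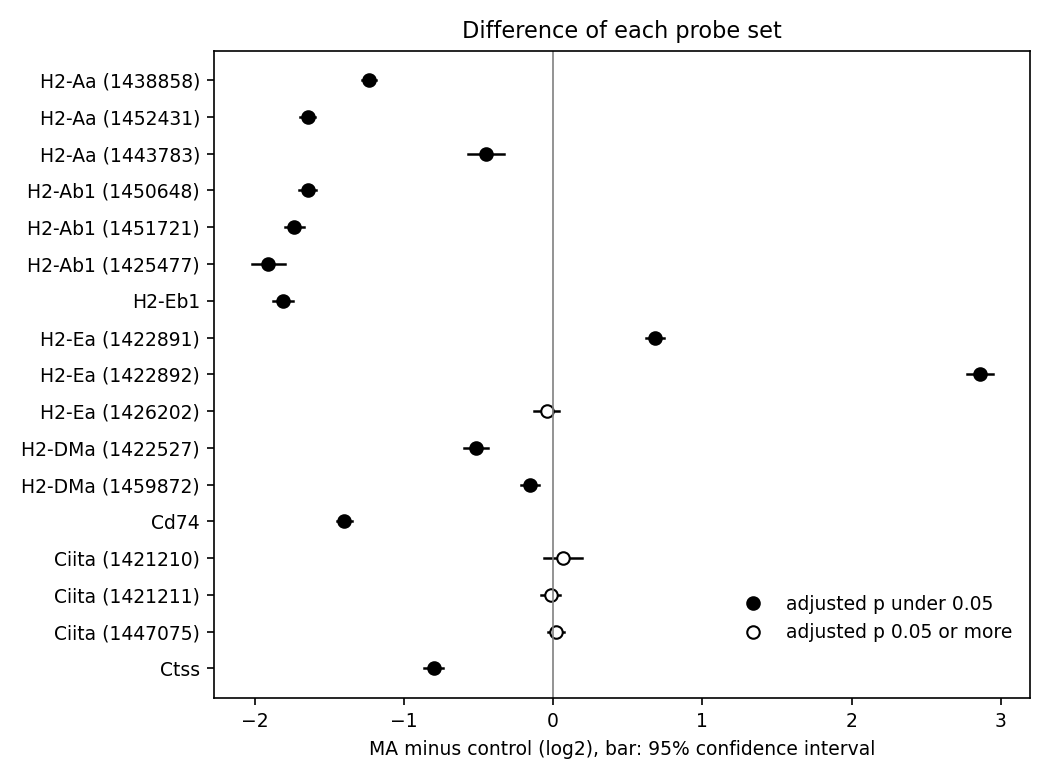
Difference of MA minus control (log2, horizontal axis) of each of the 17 probe sets, with bars for the 95% confidence interval and filled points for a limma adjusted p under 0.05. H2-Aa, H2-Ab1 and H2-Eb1 lie between -1.91 and -0.45, Cd74 and Ctss at -1.40 and -0.80, and the probe sets of H2-Ea at 2.86, 0.68 and -0.04.

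Of the genes that load class II molecules, Cd74 fell with the classical chains. Its probe set (1425519) read 7.76, 7.78 and 7.79 on the MA arrays, against 9.17, 9.19 and 9.17 on the control arrays, with no overlap. The difference was -1.40 (SE 0.02), 2.64-fold, at rank 65 from the greatest fall (limma adjusted p = 2.43e-09). Ctss, the protease that trims Cd74, read 8.133, 8.193 and 8.231 on the MA arrays, against 8.973, 8.988 and 8.9985 on the control arrays. Its difference was -0.80 (SE 0.03), 1.74-fold, at rank 255 (limma adjusted p = 2.233e-07). H2-DMa changed less. Its brighter probe set (1422527) read 4.55, 4.63 and 4.65 on the MA arrays, against 5.12, 5.09 and 5.18 on the control arrays, a difference of -0.52 (SE 0.03) or 1.43-fold (limma adjusted p = 7.688e-06). The dimmer one (1459872) read 3.79, 3.77 and 3.79 on the MA arrays, which were under background, against 3.97, 3.95 and 3.90 on the control arrays. It passed with a difference of -0.16 (limma adjusted p = 0.001793), and with MA at background the fall was at least 1.01-fold.

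Ciita, the coactivator of the pathway, was not detected in either group. Probe set 1421210 read 3.67, 3.66 and 3.86 on the MA arrays, against 3.60, 3.67 and 3.72 on the control arrays, and all 3 probe sets were under background on all 6 arrays. The differences were 0.07 (95% interval -0.06 to 0.19), -0.02 (-0.08 to 0.05) for 1421211 and 0.02 (-0.04 to 0.07) for 1447075, with limma adjusted p of 0.3723, 0.6683 and 0.5552. The groups overlapped on all 3, and a change of Ciita below the background of the array could not be seen.

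The other class II chains, all 5 of which were measured, had smaller differences than the classical ones by the brightest probe sets. For H2-Oa and H2-Ob, both under background, the size of a change could not be measured. H2-DMb2, a beta chain of H2-DM, fell by 0.47 (5.13, 5.16 and 5.21 on the MA arrays, against 5.57, 5.64 and 5.70 on the control arrays, limma adjusted p = 2.147e-05), and its other probe set differed by -0.05. H2-DMb1 fell by 0.25 (4.189, 4.191 and 4.280 on the MA arrays, against 4.408, 4.484 and 4.504 on the control arrays, limma adjusted p = 0.0007357). H2-Oa was called lower, at -0.13, although it was under background on all arrays. H2-Ob differed by 0.00 (limma adjusted p = 0.9125) under background, where a change could not be seen, and its other probe set by -0.20. H2-Eb2 stood at 5.07, 5.13 and 5.12 on the MA arrays, against 5.02, 5.15 and 5.08 on the control arrays, and its groups overlapped (difference 0.02, limma adjusted p = 0.6338).

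H2-Ea was set apart from its neighbours in the genome as well. In the order of RefSeq GRCm38.p6 on chromosome 17, 15 genes run from H2-Oa to H2-Ea, 13 of them measured. By the brightest probe set 10 were lower, 1 was higher and 2 did not pass, where 23.0% of all genes were lower and 24.7% higher. Those lower include the members H2-DMa, H2-Ab1, H2-Aa and H2-Eb1 themselves, and H2-Oa, which was under background on all arrays. The 1 higher was H2-Ea, the last of the row, which this annotation of the C57BL/6J strain lists as a transcribed pseudogene. Psmb8 and Psmb9, immunoproteasome subunits that lie between the DM and the classical genes, differed by -1.66 and -1.07 (limma adjusted p = 2.222e-07 and 1.624e-06), and Brd2, a chromatin reader, by -0.53 (3.847e-05). These 3 neighbours were picked after their values had been seen. Another probe set of Psmb8 differed by -0.10 and another of Psmb9 by 0.02. The other 3 members lie elsewhere, Ctss on chromosome 3, Ciita on chromosome 16 and Cd74 on chromosome 18.

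**Figure D3:**
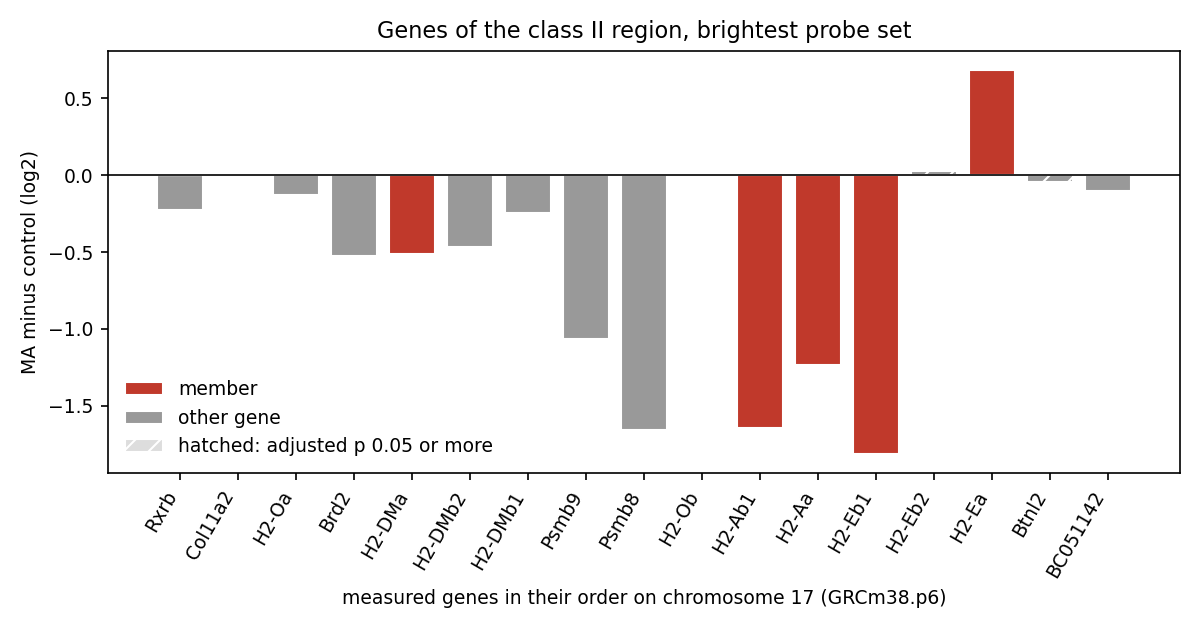
Difference of MA minus control (log2, vertical axis) of the brightest probe set of each measured gene of the class II region, in its order on chromosome 17, with the genes studied here in red, others in gray and hatching for a limma adjusted p of 0.05 or more. H2-Ab1, H2-Aa and H2-Eb1 lie at -1.64, -1.23 and -1.81, H2-Eb2 beside them at 0.02 and H2-Ea at 0.68.

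Of 13 listed genes that process antigen for class II molecules or turn the molecules over, 12 were measured, 9 were lower, 2 were higher and 1 did not pass, with a median difference of -0.15. Cd82, a tetraspanin of the loading compartment, fell by 0.83 (7.98, 8.05 and 8.02 on the MA arrays, against 8.85, 8.86 and 8.85 on the control arrays, limma adjusted p = 7.873e-08). It was the only one past 1.5-fold by the brightest probe set. Of all 17097 genes by the brightest probe set, 23.0% were lower and 24.7% higher. Past 1.5-fold, 261 of them were lower and 218 higher, figures that also serve for the lists below. Ifi30, the reductase that opens disulfide bonds of antigens, had a difference of -0.51 and Ctsc, cathepsin C, of -0.36. The other probe sets of Ctsc differed by -0.595 and 0.003. Ctsl, cathepsin L, which trims Cd74 in mouse thymic epithelium, was higher by 0.24 (limma adjusted p = 3.847e-05), although its other probe set differed by -0.01. The endosomal proteases thus did not move as a single group, with Lgmn at -0.19, Ctsd at -0.25, and Ctsb at -0.29 on its brightest probe set and 0.17 on another.

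The factors that sit on the X and Y boxes and the pathway that induces Ciita were also listed. Of 9 measured promoter factors, 5 were lower, 2 were higher and 2 did not pass, with a median of -0.07. Kat2b, an acetyltransferase and 1 of the 5 (difference -0.07), lost its call whenever an array was left out, while its other probe sets differed by -0.68 and 0.02. Rfx5, the DNA-binding subunit of the X box complex, fell by 0.45 (6.35, 6.35 and 6.37 on the MA arrays, against 6.82, 6.78 and 6.82 on the control arrays, limma adjusted p = 1.708e-06). Its partner Rfxank was higher by 0.27 (limma adjusted p = 0.002681), with its other probe set at 0.01. Rfxap differed by 0.06 (limma adjusted p = 0.2412), with another probe set at -0.29. Of 11 measured genes of interferon-gamma signalling, 6 were lower, 1 was higher and 4 did not pass, with a median of -0.09. The 3 lower by more than 1.5-fold were the transcription factors Irf8 (-0.84, limma adjusted p = 2.003e-07) and Irf1 (-0.80, 1.816e-06) and the receptor chain Ifngr1 (-0.59, 2.93e-06). Irf1 stood at 6.02, 5.96 and 6.11 on the MA arrays, against 6.84, 6.78 and 6.88 on the control arrays. Ifng itself was under background on all arrays.

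Presentation to T cells by other molecules was compared in the same way. Of 15 measured genes of MHC class I presentation, 8 were lower, each by more than 1.5-fold, 2 were higher and 5 did not pass, with a median of -0.79. H2-K1 and H2-D1, classical class I heavy chains, differed by -2.25 and -1.71 on their brightest probe sets, both of the x_at kind and open to each other's transcripts. Their probe sets disagreed in size, from -2.72 to -0.50 for H2-K1 and from -1.71 to 0.18 for H2-D1. Nlrc5, the coactivator that serves class I promoters as Ciita serves class II, read 3.54, 3.58 and 3.62 on the MA arrays, against 4.53, 4.66 and 4.57 on the control arrays. It fell by 1.01 (limma adjusted p = 3.456e-07), with the MA values under background, which makes it at least 1.58-fold lower, and was chosen after its values had been seen. Of 9 T cell costimulators and their kin, 6 were lower, 1 was higher and 2 did not pass, with a median of -0.13. Cd83, a surface protein that stabilizes class II molecules on dendritic cells, fell by 1.498 (4.74, 4.72 and 4.74 on the MA arrays, against 6.14, 6.35 and 6.20 on the control arrays, limma adjusted p = 1.152e-07).

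Markers of macrophages and of leukocytes at large moved with the class II genes. Of 20 macrophage markers, 16 were lower, 10 of them by more than 1.5-fold, none was higher and 4 did not pass, with a median of -0.51, and Itgam and Marco were under background. Their summed level (the sum of the linear values of the brightest probe sets, to be compared between arrays only) was 2160 to 2214 on the MA arrays, against 3665 to 3736 on the control arrays. Without Lyz2, which weighs most in it, the sum was 1087 to 1117 on the MA arrays, against 1938 to 1970 on the control arrays. Aif1, a calcium-binding protein of macrophages, differed by -1.97, C1qb, a chain of complement C1q, by -1.46 and Lyz2, lysozyme, by -0.69. The 4 that did not pass were Cd68 (0.12), Cx3cr1 (0.004), Itgam (-0.01) and Ccr2 (-0.07, with another probe set at 0.41). All 10 common leukocyte markers were lower, with a median of -0.68 and a summed level of 524.3 to 543 on the MA arrays, against 923.8 to 943.4 on the control arrays, and Ptpn6 under background. Ptprc, the CD45 antigen, fell by 1.33 (6.07, 6.11 and 6.08 on the MA arrays, against 7.43, 7.41 and 7.41 on the control arrays). The part of these markers in the fall of the class II genes was not tested.

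Other cell types that can carry or read class II had list medians nearer to 0. Of 11 measured dendritic cell markers, 2 were lower, 2 were higher and 7 did not pass, with a median of -0.02, a summed level of 492.3 to 508.1 on the MA arrays, against 659 to 662.6 on the control arrays, and Itgae under background. Without Clec10a the sums overlapped, at 403.9 to 421.2 on the MA arrays, against 418.1 to 424.7 on the control arrays. The 2 lower were Clec10a, a lectin that macrophages also make, at -1.46, and Zbtb46, a transcription factor of classical dendritic cells, at -0.36, while Itgax (CD11c) differed by -0.02 (limma adjusted p = 0.7207). Of 10 measured B cell markers, 1 was lower, 2 were higher and 7 did not pass, with a median of 0.02, a summed level of 302.7 to 304.2 on the MA arrays, against 309.4 to 313.8 on the control arrays, and Cr2 and Fcer2a under background. The 1 lower was Ebf1, and without it the order of the sums was reversed. Every MA sum was then at least 250.3, and no control sum was above 248.7. Ms4a1 (CD20) differed by 0.01 (limma adjusted p = 0.8721). Of 10 measured T cell markers, 4 were lower, 1 was higher and 5 did not pass, with a summed level of 219.8 to 220.8 on the MA arrays, against 257 to 262.8 on the control arrays. Cd28, a costimulatory receptor, was the only one past 1.5-fold (-0.75, limma adjusted p = 3.296e-07), and without it the sums overlapped, at 163.9 to 166.4 on the MA arrays, against 165.8 to 168.9 on the control arrays. Cd3g, Cd8b1, Cd2 and Cd5 were under background. Of 8 natural killer cell markers, 4 were lower and 4 did not pass, with sums of 162.2 to 171.5 on the MA arrays, against 186.2 to 191.1 on the control arrays, and Ncr1 and Klra8 under background. Of 10 endothelial markers, 9 were lower, with a median of -0.21 and sums of 402.6 to 411.8 on the MA arrays, against 463.3 to 477.2 on the control arrays, and Tie1 under background. Muscle fiber genes, which check the tissue label, were bright, with Mylpf, a myosin light chain, at a mean of 12.40 on the MA arrays and 12.21 on the control arrays. Of 9 such genes, 6 were higher, 1 was lower and 2 did not pass, with a median of 0.13 and sums of 44230 to 44560 on the MA arrays, against 41740 to 41790 on the control arrays.

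**Figure D4:**
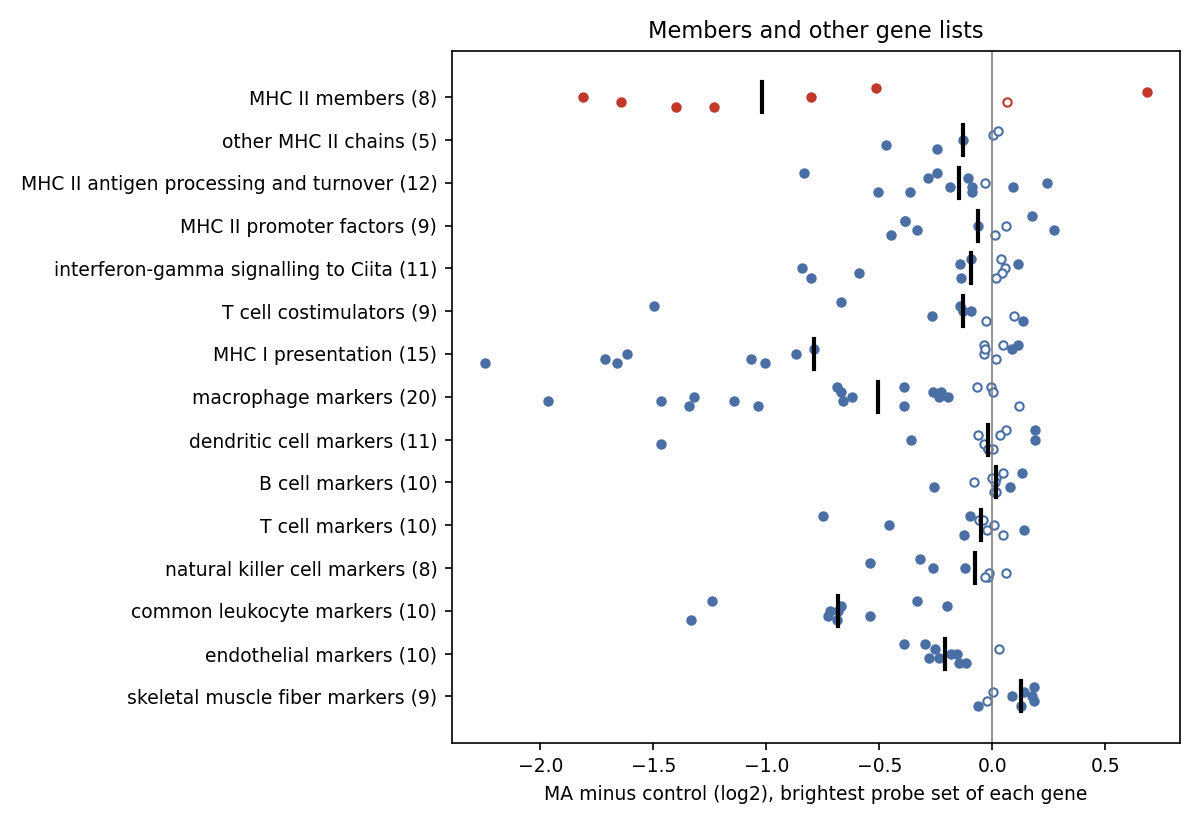
Difference of MA minus control (log2, horizontal axis) of each measured gene, by its brightest probe set, for the 8 class II genes (red) and 14 other lists (blue), with the number measured in brackets, filled points for a limma adjusted p under 0.05 and black bars for list medians. The medians of the class II genes, MHC I presentation and the common leukocyte and macrophage markers are -1.02, -0.79, -0.68 and -0.51, while that of the B cell markers is 0.02.

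The genes whose values over the 6 arrays were nearest to those of the class II genes were sought among 10629 others. The measure was the root mean square distance from the median profile of H2-Aa, H2-Ab1, H2-Eb1 and Cd74, each set to 0 at its control mean. The 5 nearest were Phf20l1, a chromatin reader, at 0.03, Angptl4, an inhibitor of lipoprotein lipase, at 0.04, Clec10a at 0.04, C1qb at 0.05 and the transcript AW112010 at 0.05. Their differences lay between -1.58 and -1.46, with no value of an MA array near one of a control array. With 2 groups of 3 arrays, such likeness reflects chiefly a like difference between the groups.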

How the data were processed

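Gastrocnemius RNA from day 14 after denervation was hybridized to 6 Affymetrix GeneAtlas arrays, 3 for MA and 3 for control. The deposited probe sets carry the names of the mouse array given in the methods, not of the human array that GEO's design text mentions. The authors processed the scans by RMA in Affymetrix Expression Console (version not given in the sources used here), and the deposited values are log2 intensities, background-corrected, quantile-normalized and summarized per probe set, which makes the arrays' distributions nearly equal. Array intensities have no read depth, and 3 arrays per group limit the precision.

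Of 45141 probe sets, 104 controls were set aside. The other 45037 named 1 gene (28898), several (551) or none (15588) in the platform annotation, and only the first were used by name. Each probe set was fitted in R 4.3.3 with limma 3.58.1 (lmFit and eBayes, no covariates), with Benjamini-Hochberg adjustment. Lists used the brightest probe set per gene. The steps were tested on simulated data.

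The members, the lists and the tests were chosen with earlier results of these data known. Every member and every gene of the class II and interferon lists could be named, and of other lists the 3 brightest and the 2 with the largest differences, as well as the 5 genes most like the members. Nlrc5, Psmb8, Psmb9, Brd2 and Cd79a, markers named as under background, and the macrophage markers that did not pass fall outside this rule. The background without the control of 25 G or C was chosen after seeing the data. Replicate numbers of the titles were not used to pair the arrays in the main fit. Arrays of the same number had deviation correlations of 0.19, 0.04 and 0.14. Arrays of different numbers were not compared, so that pairing was not settled.

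Alternatives were the methods' one-way ANOVA, trended or robust eBayes, renormalization, median centring, dim probe sets left out, a replicate block, array weighting, folds of 1.2 and 1.5, the mean over a gene's probe sets and leaving out each array.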

Additional observations from a re-analysis of the deposited data

How the results depend on the processing

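The 11 lower and 2 higher probe sets of the class II genes stayed at 11 and 2 when any single array was left out. Over the leave-one-out fits, 7838 to 9858 of all probe sets were lower and 7788 to 9530 higher, against 9624 and 9707 with all arrays. The replicate block gave 9916 lower and 9928 higher, 11 and 2 among the class II probe sets, and changed no call of a member. Of all probe sets, 2882 were lower and 2622 higher with the filter above every nonspecific control, 2580 and 2053 at the thresholds of the methods (unadjusted p of 0.05, fold of 1.2), and 543 and 436 with a fold over 1.5. The first of these, at 7.24, left 8 class II probe sets lower and 0 higher, as H2-Ea lies under it. The 3 probe sets of H2-Ab1 passed it by their control means alone (8.57, 8.32 and 7.61). Their MA means were 6.93, 6.59 and 5.71, so that passing this filter adds no support for their fall. The filter without the all-G/C control, chosen after seeing the data, left 9 and 2, with H2-Ea 1422892 passing by its MA mean (6.23) alone. A fold over 1.5 ended the calls of both H2-DMa probe sets and of H2-Aa 1443783, and a fold over 1.2 that of H2-DMa 1459872. Differences near 0 changed sign. With an array left out, Ciita 1421211 lay between -0.0368 and 0.00686, H2-Ob between -0.00264 and 0.0123, H2-Eb2 between -0.00758 and 0.0579, Itgax between -0.0622 and 0.00937, and Ms4a1 between -0.0157 and 0.0177. H2-Ob was at -0.00404 with renormalization and Itgax at 0.00168 with array weights. With the mean over a gene's probe sets, H2-Ob was at -0.10, Rfxap at -0.12, Jak2 at 0.11 and Ms4a1 at -0.0181. H2-Ob and Rfxap were then called lower, while Ctsb, Sppl2a, Creb1, Jak1 and Usf1 lost their calls. With an array left out, Kat2b lost its call in 6 of 6 fits and under the block, Lamp2, Jak2 and Cd79a in 4, and Ighm and Cd4 in 3, while Irf2 gained one in 1. The cause was not tested. Signals under background, as for Ciita, limit what these arrays can show.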
